A study of Mus musculus with 9 samples.

Results

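The Id genes encode inhibitors of DNA binding and differentiation, and all 4 members of the mouse family (Id1, Id2, Id3 and Id4) were followed here by selecting every probe set that the platform annotation assigns to one of them. The selection gave 4 probe sets, 1 for each gene, of 12488 on the array. The cells were OB-6, an osteoblastic line from mouse bone marrow, treated with parathyroid hormone (PTH), the peptide hormone that acts on osteoblasts through a receptor coupled to cAMP. RNA was profiled at the start (0 min, no exposure to PTH), after 30 min and after 60 min of PTH, with 3 arrays at each time, labelled replicates a, b and c. The hormone dose is not given in the sources used here, and cultures handled for the same times without PTH were not analysed here, so time and hormone cannot be told apart. Nothing in the labels tells whether the 3 arrays of a time stand for 3 cultures, so the spread behind each p-value is that between arrays and could be technical.

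Id proteins carry a helix-loop-helix dimerisation domain but lack the basic region with which related transcription factors contact DNA. They bind the E proteins (Tcf3, Tcf4 and Tcf12) and so keep these from pairing with tissue-specific basic helix-loop-helix (bHLH) factors, which delays differentiation. In osteoblastic cells Id1, Id2 and Id3 are known as direct targets of bone morphogenetic protein (BMP) signalling through Smad proteins, and Id1 in other cells also as a target of Egr1.

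Upstream sequence is shown for Id3, which rose in these data, and for Id2, which did not pass the test, because both have a promoter window in the RefSeq table of build GRCm38.p6, as did 3 of the 4 Id genes. Each run is the 250 bases before the annotated start, 5′ to 3′ on the strand of the gene. The Id3 window is chr4:136143572-136143821 on the plus strand, and the Id2 window is chr12:25096093-25096342 on the minus strand. Capitals mark every match, on either strand, to TGACG (the CREB core site), TGACGTCA (the full CREB element), GGCGCC (a GC-rich element bound by BMP Smads), CAGAC (the Smad box), GCGGGGGCG (an Egr site) or CCAAT (the CCAAT box).
Id3: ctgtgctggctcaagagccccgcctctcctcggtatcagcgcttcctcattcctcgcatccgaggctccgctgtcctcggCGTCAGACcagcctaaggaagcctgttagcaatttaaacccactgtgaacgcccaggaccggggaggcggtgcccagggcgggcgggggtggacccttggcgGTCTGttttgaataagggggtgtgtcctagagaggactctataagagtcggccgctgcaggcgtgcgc
Id2: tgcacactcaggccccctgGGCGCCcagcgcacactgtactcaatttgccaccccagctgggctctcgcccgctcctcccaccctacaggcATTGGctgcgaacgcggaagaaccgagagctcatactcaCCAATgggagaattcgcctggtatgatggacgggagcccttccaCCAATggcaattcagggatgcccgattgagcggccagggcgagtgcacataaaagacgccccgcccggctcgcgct

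The Id3 window held 1 CREB core site, 170 to 166 bases before the start, which overlaps the first of its 2 Smad boxes, at 167 to 163 and at 68 to 64 bases before the start. The CREB core site occurs in 17.8% and the Smad box in 42.2% of the 32851 windows of this length in the table. The Id2 window held neither of these motifs, but 1 GC-rich Smad element (9.59% of windows), 231 to 226 bases before the start, and 3 CCAAT boxes (33.8% of windows). An E-box (CANNTG, found in 66.2% of windows), the site of bHLH factors, stood 1 time in the Id2 window and was not matched in that of Id3. The full CREB element (1.55% of windows) and the Egr site (2.57%) were matched in neither window. The Id4 window, not printed here, held 1 CREB core site, 1 GC-rich Smad element and 2 CCAAT boxes. These matches describe letters in 250 bases and were not tested as binding sites.

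The deposited values are linear intensities, 1 per probe set and array, running from 0.1 to 8605. They were used as deposited because the mean of each array, with 2% of probe sets trimmed from each end, was 250.1 or 250.2. The distributions still differed between times. Array medians were 82.3 to 85.9 at 0 min, 76.3 to 88.5 at 30 min and 73.1 to 80.3 at 60 min. The top percentile of values began at 3474 to 3606 at 0 min, 3443 to 3780 at 30 min and 3852 to 4722 at 60 min. The tests covered the 7884 probe sets that exceeded an intensity of 44.7, the 40th percentile of the table, on 3 or more of the 9 arrays. Fold changes are given on the log2(intensity + 11.8) scale, where 11.8 is the 20th percentile of the table, which understates changes of dim probe sets. The array 60 min replicate b stood apart, with a median correlation of 0.938 to the others, against 0.954 to 0.967 for the other 8. Markers were counted by probe sets with 1 gene symbol. Of 12 osteoblast markers 8 had such a probe set. Their summed intensity lay between 18460 and 19729 at 0 min, 15377 and 17915 at 30 min and 17263 and 18719 at 60 min. Within that list Omd and Postn were lower at 60 min, with log2 fold changes of -1.93 and -1.23, and Col1a1 was higher by 0.56 (limma adjusted p of 0.0145, 0.0179 and 0.0499), though the other probe set of Col1a1 stood at 0.08. Pth1r, which encodes the PTH receptor, was below 44.7 on every array, with a mean of 24.5, and the same held for all 4 endothelial and all 3 measured chondrocyte markers. The endothelial sum was 29.3 to 45.3 at 0 min, 37.6 to 70.8 at 30 min and 81.1 to 95.3 at 60 min. Of 5 markers each, 3 haematopoietic and 3 skeletal muscle genes passed the filter, as did 3 of 5 measured adipocyte genes. The adipocyte sum was 571 to 610 at 0 min, 630 to 651 at 30 min and 620 to 692 at 60 min. Most of it came from Cebpa (mean 454), which was not called at 60 min (log2 fold change 0.24, limma adjusted p = 0.135). The haematopoietic sum was 1135 to 1325 at 0 min, 1156 to 1285 at 30 min and 1225 to 1626 at 60 min. Most of it came from Cd14 (mean 1071). By their brightest probe sets Cd68 and Csf1r averaged 128 and 62.3, and Itgam and Ptprc averaged 6.10 and 5.59. The muscle sum was 204 to 302 at 0 min, 325 to 363 at 30 min and 276 to 410 at 60 min, and its member Ckm was called higher at 60 min (log2 fold change 0.86, limma adjusted p = 0.0197). Any part of these markers in the Id values was not tested.

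Of the 4 Id probe sets, 3 passed the filter. Id1 and Id3 rose over the hour, Id2 passed in no comparison, and Id4 was too dim to be tested. Each probe set has its own hybridisation strength, so intensities are compared here between times and not between genes.

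Id1, the member most often described as an early BMP target, had intensities of 243, 217 and 250 on replicates a, b and c at 0 min. At 30 min they were 398, 378 and 336, and at 60 min they were 523, 536 and 551. The 3 times did not overlap with each other on any of the 9 arrays. The share of tested probe sets separated at all 3 times was not computed, and shares for pairs of times are given below. The spread within a time was small beside these steps, with SDs of 17.4 at 0 min, 31.7 at 30 min and 14.4 at 60 min (n = 3 arrays each).

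Id3, which shares BMP regulation with Id1, had intensities of 1003, 1011 and 1300 at 0 min, of 1203, 1850 and 1555 at 30 min, and of 1828, 2404 and 2023 at 60 min. The 60 min arrays all lay above the 0 min arrays. The 30 min arrays overlapped with both other times, since replicate a at 30 min was below replicate c at 0 min and replicate b at 30 min was above replicate a at 60 min.

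Id2, known as a partner of the retinoblastoma protein as well as of E proteins, had intensities of 314, 340 and 361 at 0 min, of 427, 319 and 343 at 30 min, and of 447, 283 and 419 at 60 min. The times overlapped throughout. At 60 min replicates a and c were above every 0 min array while replicate b, the array that stood apart, was the lowest of all 9, and the SD grew to 88.1, against 23.7 at 0 min.

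Id4, best known from neural and mammary progenitors, lay between 20.7 and 41.1 on the 9 arrays, below the filter on each. Its values were 20.7, 33.9 and 40.7 at 0 min, 38.9, 28.0 and 41.1 at 30 min, and 36.5, 28.2 and 39.3 at 60 min. The groups overlapped.

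**Figure D1:**
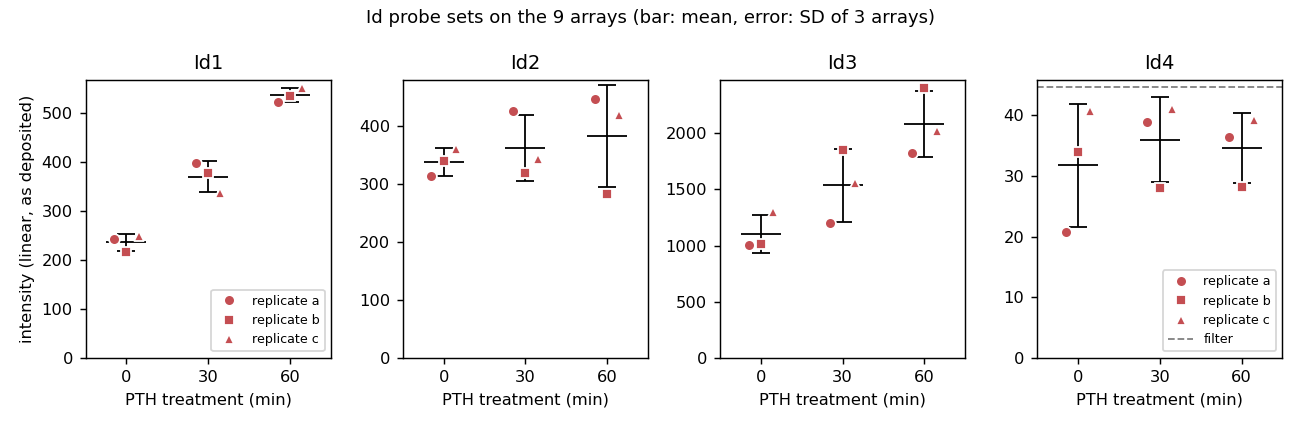
Intensity (linear scale) of each Id probe set on the 9 arrays against minutes of PTH, with a symbol for each replicate, a bar at the mean and an error bar of 1 SD over 3 arrays. Id1 steps up at each time without overlap (217 to 250 at 0 min, 336 to 398 at 30 min, 523 to 551 at 60 min), while the Id4 points all stay under the dashed filter at 44.7.

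After 60 min of PTH, Id1 averaged 537 ± 14.4 against 236 ± 17.4 at 0 min, and Id3 averaged 2085 ± 293 against 1105 ± 169 (SD, n = 3 arrays each). Id1 rose 2.21-fold, with a log2 fold change of 1.15 (limma adjusted p = 0.00103) whose standard error (SE) was 0.11. Id3 rose 1.88-fold, with a log2 fold change of 0.91 (SE 0.17) and a limma adjusted p of 0.0131. Id2 averaged 383 ± 88.1 at 60 min and 338 ± 23.7 at 0 min, with a log2 fold change of 0.15 and a 95% interval of -0.24 to 0.54 (limma adjusted p = 0.604). That interval leaves room for changes of either sign in Id2. Id4, which entered only a fit without a filter, stood at 0.11 with an interval of -0.44 to 0.66.

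Thus 2 of 3 tested Id probe sets were called higher at 60 min, at an adjusted p under 0.05, where 13.1% of the 7884 tested probe sets were called in either direction and 4.35% were called higher. By log2 fold change Id1 stood at rank 18 and Id3 at rank 51 of the 7884, against a median of 0.03 over all. The 3 arrays at 60 min lay wholly above those at 0 min for Id1 and Id3, as they did for 20% of all tested probe sets. The Id1 call remained with any of the 9 arrays left out, at log2 fold changes of 1.09 to 1.18. That of Id3 was lost without 0 min replicate a (adjusted p = 0.0668) or 0 min replicate b (0.0619), with log2 fold changes of 0.80 to 1.03 over the 9 omissions. Without 60 min replicate b, Id1 stood at 1.15, Id3 at 0.80 and Id2 at 0.35 (limma adjusted p of 0.00154, 0.0277 and 0.154). After quantile normalization Id1 stood at 1.20 and Id3 at 0.83, and after scaling to the 75th percentile at 1.21 and 0.98.

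After 30 min, Id1 averaged 370 ± 31.7 against 236 ± 17.4 at 0 min, Id3 averaged 1536 ± 324 against 1105 ± 169, and Id2 averaged 363 ± 56.5 against 338 ± 23.7 (SD, n = 3 arrays each). Id1 rose 1.54-fold, with a log2 fold change of 0.62 (SE 0.11) and a limma adjusted p of 0.0379. Id3 stood at 0.46 (SE 0.17, limma adjusted p = 0.199) and Id2 at 0.09 (SE 0.18, limma adjusted p = 0.802). Id1 was thus the 1 of 3 tested members called, where 0.939% of the tested probe sets were called in either direction and 0.482% were called higher. The 38 higher and 36 lower calls became 52 higher and 91 lower under quantile normalization, 40 and 61 when arrays were scaled to their 75th percentile, and 32 and 60 under cyclic loess, and Id1 was called in each of these fits. The Id1 arrays at 30 min lay wholly above those at 0 min, as for 15.3% of all tested probe sets. The call of Id1 at 30 min was lost without any single 0 min array, without replicate b or c at 30 min, or without replicate a or c at 60 min. Its adjusted p then reached up to 0.185, and its log2 fold change stayed between 0.56 and 0.69 over the 9 omissions.

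**Figure D2:**
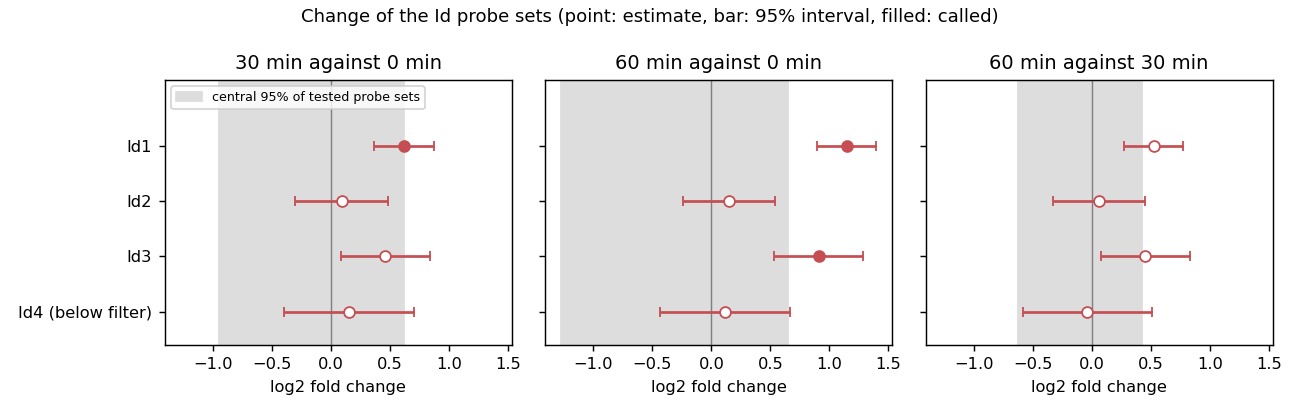
Log2 fold change of each Id probe set (x axis) in the 3 comparisons of times, with 95% intervals. Filled points were called at a limma adjusted p under 0.05, and the grey band spans the central 95% of tested probe sets, -1.27 to 0.65 for 60 against 0 min. Id1 (1.15) and Id3 (0.91) lie to the right of that band at 60 min, and Id2 and Id4 lie within it.

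Between 30 and 60 min, Id1 averaged 537 ± 14.4 at 60 min and 370 ± 31.7 at 30 min, a log2 fold change of 0.52 (SE 0.11). Its 60 min arrays all lay above its 30 min arrays, as for 5.06% of tested probe sets. The limma adjusted p was 0.332, from an unadjusted p of 0.000839. Id3 averaged 2085 ± 293 at 60 min and 1536 ± 324 at 30 min, with a log2 fold change of 0.45 and a limma adjusted p of 0.54, from an unadjusted p of 0.0235. Id2 averaged 383 ± 88.1 and 363 ± 56.5, with 0.06 and an adjusted p of 0.916. In this comparison 0 of 3 members were called by limma, 2 had an unadjusted p under 0.05, and the background was 0.0254% of probe sets called and 9.07% with an unadjusted p under 0.05. For Id1 the increments of the earlier and the later interval, 0.62 and 0.52, therefore differed in their calls but little in size, and their difference was not tested.

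Any change over the 3 times was tested with the F test of the same model. Id1 passed with an adjusted p of 0.00238 and Id3 with 0.0372, whereas Id2 had 0.811, and 4.64% of all tested probe sets passed. The call of Id3 in this test was lost without a filter, without a variance trend, and without 0 min replicates a, b or c, 30 min replicate c or 60 min replicate c. Id1 passed in each of these fits.

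**Figure D3:**
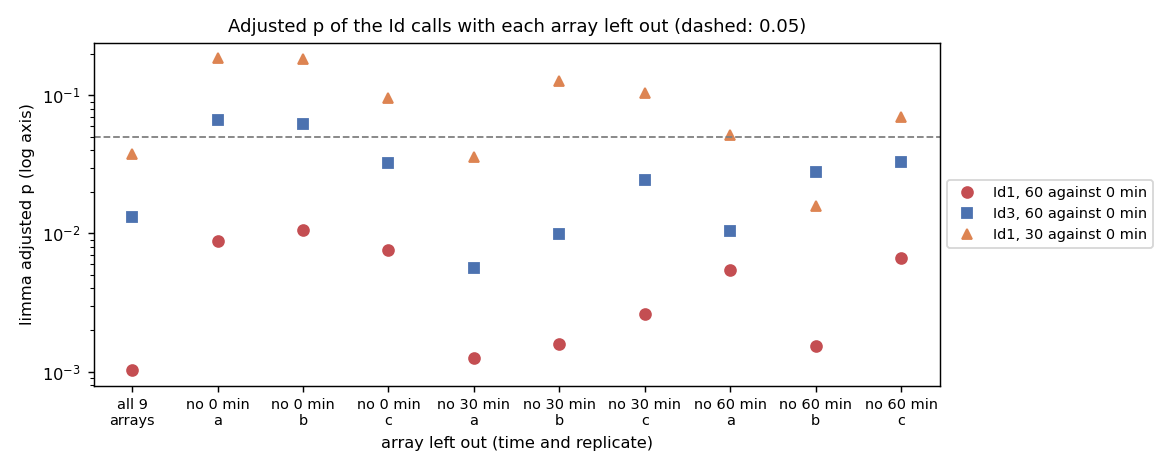
Limma adjusted p (log axis) of the 3 called Id changes with all 9 arrays and with each array left out, against the threshold of 0.05 (dashed). Id1 at 60 min stays below the line in all fits, at 0.0106 or less. Id3 at 60 min crosses it without 0 min replicate a or b, and Id1 at 30 min stays below it only with all arrays or when replicate a at 30 min or replicate b at 60 min is left out.

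Whether members of the family responded unlike each other was asked from the log2 difference of 2 members on each array. Id1 minus Id2 was 0.50 ± 0.35 at 60 min and -0.50 ± 0.14 at 0 min (SD, n = 3 arrays each), without overlap, with an exact two-sided permutation p of 0.1. This is the smallest p that 3 arrays against 3 can give, and it was 0.3 after adjustment over the 9 differences tested. Id2 minus Id3 was -2.43 ± 0.54 at 60 min and -1.67 ± 0.14 at 0 min, also without overlap and with the same exact p. Id1 minus Id3 was -1.93 ± 0.19 at 60 min and -2.16 ± 0.17 at 0 min, with overlap and an exact permutation p of 0.2. After quantile normalization Id1 minus Id3 did not overlap between these times, with an exact permutation p of 0.1. Because this test has a floor of 0.1, it does not decide whether Id2 responded unlike Id1 or Id3, and the values are given as a description.

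Over the 9 arrays the profiles of Id1 and Id3 had a Pearson r of 0.869 on the log2 scale, that of Id1 and Id2 an r of 0.326, and that of Id2 and Id3 an r of -0.03. These correlations describe 9 arrays that fall into 3 times and share their scaling. The tested probe sets most like Id1 were those of Tk1 (r = 0.975), Tmem97 (0.966), Pradc1 (0.963), Bhlhe40 (0.963) and Akt1 (0.957), and Id3 was at rank 139 among 7883. Most like Id3 were Apba3 (0.98), Polr2f (0.98), Dhrs7b (0.977), Sh3gl1 (0.974) and Sec13 (0.973). Most like Id2 were Pdap1 (0.941), Cdk1 (0.926), Kif2c (0.913), Gosr2 (0.901) and Cdr2 (0.88).

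The genes around the Id family were read from 5 lists covering regulators at Id promoters, BMP signalling, other BMP targets, bHLH proteins, and other Id partners with cell cycle targets. The lists name 96 genes, of which 84 had a probe set with 1 gene symbol and 65 passed the filter. At 60 min 5 of the 65 were higher and 3 lower, a share of 12.3% against the background of 13.1%. At 30 min 3 were higher and 0 lower, a share of 4.62% against 0.939%, and between 30 and 60 min 0 of the 65 were called, against 0.0254%. The 3 genes higher at 30 min were Egr1, Junb and Bhlhe40. The lists were chosen with earlier results of these data known. The shares here and for each list below are therefore descriptions and not tests of enrichment. A gene is described by its brightest probe set with 1 gene symbol.

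Among regulators known to act at Id promoters, 1 of 8 tested genes was higher at both times, where 0.482% of all tested probe sets were higher at 30 min and 4.35% at 60 min. Egr1, the zinc finger factor of immediate-early responses, had 103, 88.0 and 105 on replicates a, b and c at 0 min, 640, 834 and 707 at 30 min, and 583, 309 and 425 at 60 min. All treated arrays lay far above the 0 min arrays, and Egr1 had lower values at 60 than at 30 min (limma adjusted p = 0.498), the reverse order of Id1 and Id3. Its log2 fold changes were 2.74 at 30 min and 1.99 at 60 min (limma adjusted p of 9.61e-05 and 0.00116). Creb1, the cAMP response factor itself, stood at -0.66 at 60 min (limma adjusted p = 0.0625), and Atf3, a stress-induced factor that can repress Id1, at 0.35 (0.137). Myc stood at 0.53 (0.0545), and the list had 2 members higher at 60 min under each of the 3 other scalings. With the replicate block the list had 1 member lower at 60 min.

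BMP ligands, receptors, Smads and antagonists gave 0 of 18 tested genes called at either time, against 0.939% of all tested probe sets at 30 min and 13.1% at 60 min. Their median log2 fold change at 60 min was -0.08, against 0.03 over all tested probe sets, and 2 uncalled receptor genes lay below -1, Acvr2a at -1.11 and Bmpr1a at -1.29 (limma adjusted p of 0.1 and 0.112). The brightest were Tob1, an antiproliferative protein that dampens BMP Smad signalling, and the ligand Bmp4. Tob1 averaged 1450 at 60 min and 1547 at 0 min, with a log2 fold change of -0.10 (SE 0.11). Bmp4 averaged 1481 at 60 min and 1511 at 0 min, with -0.06 (SE 0.16). The inhibitory Smads, themselves known BMP targets, stood at 0.08 for Smad6 and 0.27 for Smad7, with limma adjusted p of 0.722 and 0.247. The list had 1 member lower in a fit of the 2 times alone and without 30 min replicate b, and 2 lower without 60 min replicate a.

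Other BMP targets gave 3 of 9 tested genes higher at 60 min and 0 lower, against 4.35% called higher over the table, with a list median of 0.31. Msx2, a homeobox factor of the osteoblast lineage, had 137, 138 and 115 at 0 min, 172, 235 and 228 at 30 min, and 223, 260 and 196 at 60 min. Its arrays at 30 and 60 min overlapped with each other and lay above those at 0 min. Msx2 rose by a log2 fold change of 0.74 at 60 min (SE 0.16, limma adjusted p = 0.0197) and stood at 0.65 at 30 min (limma adjusted p = 0.0826). Dlx5, a homeobox activator of osteoblast genes, had 289, 357 and 308 at 0 min, 334, 393 and 396 at 30 min, and 446, 479 and 455 at 60 min. Its 60 min arrays lay above all others, and it rose by 0.52 at 60 min (SE 0.12, limma adjusted p = 0.0247). Junb, which is an immediate-early AP-1 subunit as well as a BMP target, rose by 1.42 at 60 min and 1.56 at 30 min (limma adjusted p of 0.00277 and 0.0015). The calls of Msx2 and Dlx5 at 60 min were lost without any single 0 min array, which left 1 of 9 higher, and that of Dlx5 also without 60 min replicates b or c. Over 19 alternatives their log2 fold changes stayed between 0.62 and 0.85 for Msx2 and between 0.46 and 0.60 for Dlx5.

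Among the bHLH proteins, 1 of 17 tested genes was higher at 60 min and 3 were lower, against 4.35% and 8.73% over the table. Tcf4, an E protein and direct partner of Id proteins, had 1073, 1146 and 875 at 0 min, 797, 347 and 459 at 30 min, and 501, 232 and 455 at 60 min. The lowest value was on 60 min replicate b. Tcf4 fell by 1.42 on the log2 scale at 60 min (SE 0.32, limma adjusted p = 0.0212). Tcf12, another E protein, had 956, 1044 and 716 at 0 min, 820, 519 and 679 at 30 min, and 649, 340 and 480 at 60 min. At 60 min Tcf12 fell by 0.90 on the log2 scale (SE 0.24, limma adjusted p = 0.0349). Mitf, a bHLH leucine zipper factor of melanocytes and osteoclasts, was dim, at 39.1 ± 7.48 at 60 min against 82.7 ± 19.7 at 0 min (SD, n = 3 arrays each), and fell by 0.88 (limma adjusted p = 0.034). Tcf3, which encodes the E2A proteins, stood at 164 ± 47.4 at 60 min against 140 ± 1.72 at 0 min. Its log2 fold change was 0.18, with a limma adjusted p of 0.537. At 30 min it averaged 203 ± 28.2, with a log2 fold change of 0.49 (limma adjusted p = 0.201). Its 30 min arrays all lay above those at 0 min, as for 15.3% of all tested probe sets.

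The calls of the E protein genes depended on single arrays, while their log2 fold changes stayed between -1.62 and -1.08 for Tcf4 and between -1.12 and -0.67 for Tcf12 over 19 alternatives. The calls of Tcf4 and Tcf12 were lost without any single 0 min array. That of Tcf12 was also lost without replicate c at 30 min, replicate b or c at 60 min, a filter or a variance trend. Mitf lost its call without replicate a or b at 0 min, replicate c at 30 min, or replicate b or c at 60 min. It also lost its call without a filter, and it did not pass the filter on all 9 arrays. The count of lower bHLH genes was 0 without replicate a or b at 0 min, and 1 without a filter or without replicate c at any time or replicate b at 60 min. Bhlhe40, a repressor of the clock, was the 1 bHLH gene that rose, with 79.8, 87.9 and 102 at 0 min, 160, 186 and 173 at 30 min, and 359, 314 and 263 at 60 min. Its log2 fold changes were 0.87 at 30 min and 1.67 at 60 min (limma adjusted p of 0.0289 and 0.000803). The Bhlhe40 call at 30 min was lost in 6 of 19 alternatives (without a filter, without any single 0 min array, and without replicate b or c at 30 min), with adjusted p up to 0.184. The bHLH factors Twist1 and Twist2, which restrain osteoblast differentiation, averaged 402 and 560 at 60 min against 331 and 518 at 0 min, with limma adjusted p of 0.245 and 0.778.

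Other Id partners and cell cycle targets gave 0 of 15 tested genes called, against 13.1% of all tested probe sets at 60 min, with a median log2 fold change of -0.01 at 60 min. The brightest were Psmd4, a ubiquitin receptor of the proteasome, at 0.44 (SE 0.15, limma adjusted p = 0.0696), and Cav1, the main caveolar protein, at -0.20 (limma adjusted p = 0.308). Rb1, encoding the retinoblastoma protein, was dim and stood at -0.85 (limma adjusted p = 0.066). Cdkn1a, the cell cycle inhibitor p21 whose gene E proteins activate, stood at 0.40 by its brightest probe set (limma adjusted p = 0.0641), while its other tested probe set was higher by 0.85 (limma adjusted p = 0.00693). At 30 min that other probe set was also higher, by 0.71 (limma adjusted p = 0.0287), and the brightest stood at 0.39 (0.159). The list had 1 member lower with the replicate block and 2 lower without 60 min replicate a. It had 1 to 3 members higher in 10 alternative fits, among them 2 under quantile normalization and 2 with arrays scaled to their 75th percentile.

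**Figure D4:**
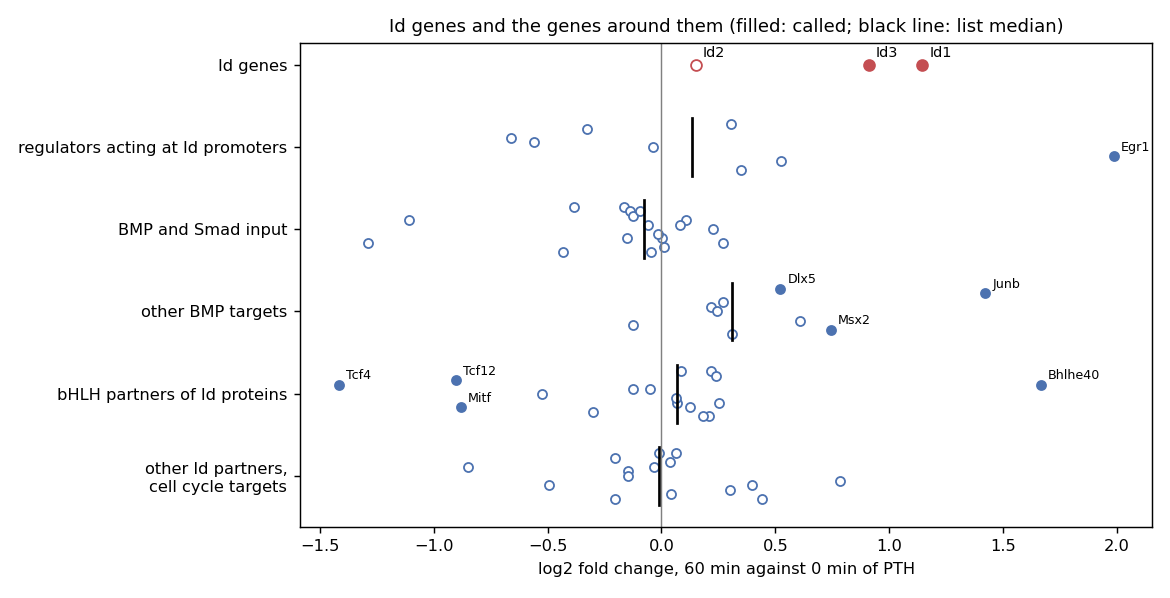
Log2 fold change at 60 against 0 min of PTH for the 3 tested Id genes and the tested members of the 5 lists, with filled points for genes called at a limma adjusted p under 0.05 and a black line at each list's median. BMP and Smad input holds 0 filled points of 18, and other BMP targets 3 of 9. The E protein genes Tcf4 (-1.42) and Tcf12 (-0.90) lie left of 0. The E protein gene Tcf3 (0.18, not called) lies right of 0, as do Id1 (1.15) and Id3 (0.91).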

How the data were processed

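Total RNA of OB-6 cells was measured on 9 one-colour arrays. The authors deposited 1 linear intensity per probe set and array; how they were summarised and scaled is not given in the sources used. Probe sets were named from the platform annotation (10833 with 1 gene symbol, 396 with several, 1193 with none, beside 66 controls). Intensities were used as deposited, log2(intensity + 11.8) was taken, and limma 3.58.1 (R 4.3.3) fitted the mean of each time over all 9 arrays and 7884 probe sets, with lmFit and a variance trend in eBayes (residual degrees of freedom 6, prior 4.68). Benjamini-Hochberg adjustment ran over all tested probe sets. The fit was also run on simulated arrays with independent noise, which do not cover an outlying array or a shift of whole arrays. The number of arrays limits the precision.

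The members and lists were chosen with earlier results of these data known. All Id probe sets are named. From each list came the members past the threshold, up to 6 per comparison, or else the 2 brightest, and the 5 probe sets with the highest correlation to each tested Id probe set. Further genes of the lists (Creb1, Atf3, Myc, Acvr2a, Bmpr1a, Smad6, Smad7, Tcf3, Twist1, Twist2, Rb1 and Cdkn1a) were chosen after their values were seen. Promoter windows came from RefSeq, build GRCm38.p6. Alternatives covered the constant, the filter, the normalization, the variance trend, the arrays fitted, the replicate letter and each array left out. Plots used matplotlib 3.10.9 (Python 3.11.15).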

Additional observations from a re-analysis of the deposited data

How the results depend on the processing

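Id1 at 60 against 0 min was called in all 19 alternatives (log2 fold change 1.04 to 1.21), Id3 in 17 (0.78 to 1.03) and Id1 at 30 min in 11 (0.55 to 0.69). Cyclic loess, and all alternatives for the 5 lists, were chosen after seeing the data. The number of Id probe sets called at 30 min was 0 without a variance trend and 0 to 1 with an array left out. At 60 min it was 1 to 2 with an array left out. Over the 3 times it was 1 without a filter and 1 without a variance trend, and 1 to 2 with an array left out. The uncalled Id2 change turned sign with single arrays left out, from -0.028 to 0.18 at 30 against 0 min and from -0.062 to 0.26 at 60 against 30 min. Over the whole table, the 74 probe sets called at 30 against 0 min became 117 with a constant of 50, 39 without a filter, 143 after quantile normalization, 40 without a variance trend, 389 with only the 2 times fitted and 16 to 557 with an array left out. The 1031 at 60 against 0 min became 652 without a filter and 77 to 1584 with an array left out. They were 343 higher and 688 lower, against 499 and 652 after scaling to the 75th percentile. The 2 at 60 against 30 min became 1 with the filter on all 9 arrays or only the 2 times fitted, and 0 to 5 with an array left out. Deviations of same-letter arrays correlated at 0.304, 0.251 and 0.0224 between 30 and 60 min, against -0.266 to 0.0523 for different letters of those times. Between 0 min and the later times they correlated at -0.128 to 0.0776, against -0.122 to 0.179 for different letters. The main fit was planned without the letters, and the labels do not tell whether they mark pairs. With the replicate block, 259 probe sets were called at 30 against 0 min and 1 at 60 against 30 min, and the Id1 and Id3 calls were unchanged. Id4 was too dim to pass the filter.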
